A study of Rattus norvegicus with 3 samples.

Results

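The mast cell markers described here are 9 genes, Cpa3, Cma1, Mcpt1, Tpsab1, Tpsb2, Kit, Ms4a2, Fcer1a and Hdc, found by gene symbol in the annotation of the array's probe sets, out of 14217 genes measured. They have 10 of the 31099 probe sets, a probe set being a group of short probes read together; Ms4a2 has a pair and the other 8 genes have 1 each. RNA came from wild-type male Sprague-Dawley rats, 9 weeks old when tissue was taken, with 1 array per tissue. Peri-implant connective tissue (PICT) was collected around a titanium alloy implant placed straight into the socket of an upper first molar extracted at 5 weeks of age, 4 weeks earlier. Periodontal connective tissue (PCT) was collected around an unextracted upper first molar, without surgery. Oral mucosal connective tissue (OMCT) was collected where the molar had been extracted 4 weeks earlier and no implant set. All were cut out of sections by laser microdissection, and the labels do not state how many animals stand behind an array.

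Mast cells are tissue-resident immune cells that lie along vessels, nerves and epithelium, including the gingiva. Their granules hold proteases (chymases, tryptases and carboxypeptidase A3) and histamine bound to heparin on a serglycin core. They depend on the receptor Kit, and antigen that crosslinks IgE on the high-affinity receptor FcεRI triggers release of the granules. Rodent mast cells of connective tissue and of mucosa carry different chymases.

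The mast cell markers were dim on every array. None of the 9 genes reached the median probe set of any array (56.5 in PICT, 34.3 in PCT and 57.4 in OMCT, as intensities on the deposited linear scale). The floor used here is the brightest of the array's 3 negative control probe sets, which target a bacterial gene: 8.36 in PICT, 5.71 in PCT and 3.60 in OMCT. Reading each gene from its brightest probe set, above it lay 1 of 9 markers in PICT, 5 of 9 in PCT and 5 of 9 in OMCT, against 86.6%, 86.3% and 92.4% of all genes. Where a gene does not exceed this floor, the array does not separate its signal from background. No marker exceeded the floor on all arrays, as 82.0% of all genes did. Only Mcpt1 failed to exceed it on any. Counting all 10 probe sets, 12 of 30 values lay above the floor.

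Of the 5 granule proteases among the markers, 4 lay above the floor in PCT, 2 in OMCT and 0 in PICT. Cpa3, Cma1 and Tpsab1 were brightest around the natural tooth, and Tpsb2 was brightest at the healed extraction site. Of the receptor genes, Fcer1a alone exceeded the floor in PICT. In bulk samples such as these, fewer mast cells and less RNA per mast cell cannot be told apart. Each tissue has a single array, so no spread between animals is known, no difference was tested, and the number of arrays limits the precision.

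**Figure D1:**
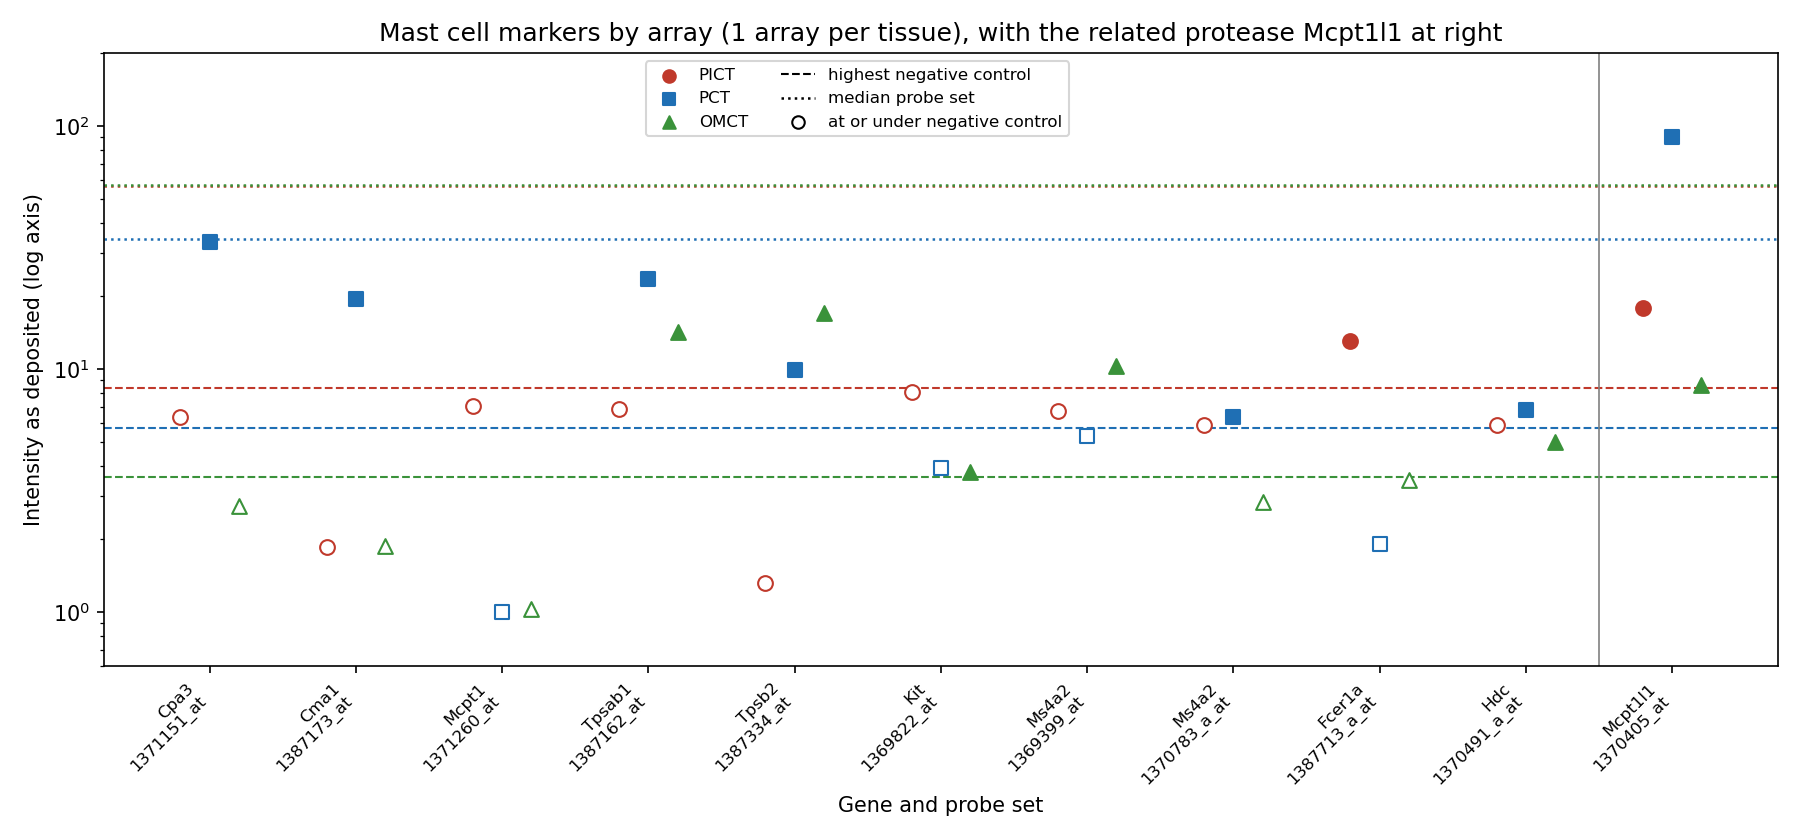
Deposited intensity (log axis) of each mast cell marker's probe set in PICT (circles), PCT (squares) and OMCT (triangles), 1 array per tissue, with Mcpt1l1 at the right; dashed lines are each array's highest negative control, dotted lines its median probe set, and open symbols lie at or under the negative control. Cpa3 in PCT, at 33.3, comes closest to a median line, and among the markers only Fcer1a is filled for PICT.

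Carboxypeptidase A3, encoded by Cpa3 (probe set 1371151_at), trims peptides in the mast cell granule. Cpa3 read 6.33 in PICT, 33.3 in PCT and 2.75 in OMCT. PCT alone stood above the floor, at percentile 49.4 of its array, while the other arrays gave percentiles 14.9 and 8.6. Set against the floor of the dim array, Cpa3 was at least 3.98-fold brighter in PCT than in PICT and at least 9.25-fold brighter than in OMCT, as deposited. With each array divided by its median these bounds were 6.55-fold and 15.5-fold, since PCT was the dimmest array, so the deposited scale is the more cautious of these for a gene brightest in PCT.

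Cma1 (probe set 1387173_at) encodes a mast cell chymase, with the RefSeq synonym Mcpt5. Cma1 read 1.85 in PICT, 19.5 in PCT and 1.88 in OMCT. As for Cpa3, only PCT exceeded the floor. The bound was at least 2.33-fold against PICT and at least 5.43-fold against OMCT, as deposited, and 3.85-fold and 9.09-fold with arrays divided by their medians.

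Tpsab1 (probe set 1387162_at) encodes a tryptase stored as a heparin-bound tetramer, with the RefSeq synonym Mcpt7. Tpsab1 read 6.87 in PICT, 23.6 in PCT and 14.2 in OMCT. It exceeded the floor in PCT and OMCT, which differed by 1.66-fold as deposited. Against PICT the bounds were at least 2.82-fold for PCT and at least 1.70-fold for OMCT. With arrays divided by their medians, PCT was 2.78-fold brighter than OMCT and at least 4.65-fold brighter than PICT.

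Tpsb2 (probe set 1387334_at) encodes the second tryptase, with the RefSeq synonym Mcpt6. Tpsb2 read 1.32 in PICT, 9.96 in PCT and 17.1 in OMCT. OMCT was its brightest array, and the PICT value lay under the floor. As deposited, OMCT was 1.71-fold brighter than PCT and at least 2.04-fold brighter than PICT, and PCT was at least 1.19-fold brighter than PICT. With arrays divided by their medians, OMCT and PCT differed by 1.02-fold, so the order of that pair rests on the scaling. Tpsab1 and Tpsb2 lie side by side on rat chromosome 10 with 0 protein-coding genes between them in RefSeq (assembly GRCr8). The tryptases are related in sequence, and how far each probe set also reads the other gene was not tested.

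Mcpt1 (probe set 1371260_at) did not exceed the floor on any array. Mcpt1 read 7.08 in PICT, 1.01 in PCT and 1.03 in OMCT. RefSeq gives this gene the synonyms rMCP-I and rMCP-II, and gives its neighbour Mcpt1l1 the synonyms Mcpt1 and rMCP-I. In the rat literature rMCP-I is a chymase of connective tissue mast cells and rMCP-II of mucosal ones. On chromosome 15 the pair have 0 protein-coding genes between them, and Cma1 lies in the same cluster with 13 between it and Mcpt1.

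Mcpt1l1 (probe set 1370405_at) is not a listed marker, but the chymase result turns on it. Mcpt1l1 read 17.9 in PICT, 90.1 in PCT and 8.58 in OMCT. It exceeded the floor on all arrays and the median probe set in PCT. As deposited it was 5.03-fold brighter in PCT than in PICT and 10.5-fold brighter than in OMCT. In this annotation the symbol Mcpt1 leads only to the probe set that stayed under the floor.

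Cpa3, Cma1 and Mcpt1l1 exceeded the floor in PCT, with PCT as brightest array, as did Tpsab1, while Mcpt1 did not exceed it. Hdc also exceeded it there and read highest in PCT. Its values lay between 0.704 and 1.39 times the floor of each array, so no order is read from Hdc. The 250 bases before the start of Cpa3, Cma1, Mcpt1l1 and Mcpt1 are shown, and those of Tpsab1 and Hdc are not. They come from RefSeq (assembly GRCr8, a reference rat of another strain), 5′ to 3′ along the gene's strand, and capitals mark matches to the core site of GATA factors, searched on either strand as AGATAA, the same with T as its leading letter (TGATAA), or each of these with G as its closing letter.
Cpa3, chr2:104673238-104673487, minus strand: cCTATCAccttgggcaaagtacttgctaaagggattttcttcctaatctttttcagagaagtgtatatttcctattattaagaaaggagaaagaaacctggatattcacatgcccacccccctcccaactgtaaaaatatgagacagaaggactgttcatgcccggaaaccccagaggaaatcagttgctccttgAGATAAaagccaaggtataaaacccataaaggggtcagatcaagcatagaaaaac
Cma1, chr15:33390134-33390383, minus strand: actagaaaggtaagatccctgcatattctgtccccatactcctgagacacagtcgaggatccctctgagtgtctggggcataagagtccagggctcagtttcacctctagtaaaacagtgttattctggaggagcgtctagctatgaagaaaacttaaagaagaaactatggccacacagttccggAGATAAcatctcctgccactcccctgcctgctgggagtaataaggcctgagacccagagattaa
Mcpt1l1, chr15:33876896-33877145, minus strand: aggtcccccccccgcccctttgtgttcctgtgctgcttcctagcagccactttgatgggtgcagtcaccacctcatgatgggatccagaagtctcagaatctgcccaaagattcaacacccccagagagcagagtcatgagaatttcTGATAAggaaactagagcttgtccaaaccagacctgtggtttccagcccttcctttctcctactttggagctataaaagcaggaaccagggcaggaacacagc
Mcpt1, chr15:33841356-33841605, plus strand: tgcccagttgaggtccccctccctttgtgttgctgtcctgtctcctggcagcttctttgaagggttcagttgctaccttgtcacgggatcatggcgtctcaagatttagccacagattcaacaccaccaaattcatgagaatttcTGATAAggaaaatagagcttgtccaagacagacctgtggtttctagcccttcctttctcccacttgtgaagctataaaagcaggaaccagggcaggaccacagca

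The Mcpt1 and Mcpt1l1 stretches aligned with 201 identical bases, 37 mismatches and 24 gap positions, an identity of 76.7%. Each holds 1 match, TGATAA, which begins 105 bases before the start of Mcpt1 and 103 bases before that of Mcpt1l1. AGATAA begins 55 bases before the start of Cpa3 and 64 bases before that of Cma1. Of the 9 markers 8 were matched to a promoter, and 4 of those 8 (Cpa3, Cma1, Mcpt1 and Fcer1a) hold a match, against 27.0% of all 33469 promoters of this length. The E-box CANNTG, the core site of basic helix-loop-helix factors such as Mitf, was found in 6 of 8, against 65.5% of all, and overlapped no GATA match in them. The promoter stretches of Tpsab1, Tpsb2 and Hdc hold no GATA match, and those of Tpsab1 and Tpsb2 aligned with 53.0% identity. A match describes letters only; binding was not measured.

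The genes for the IgE receptor lay near the floor. Fcer1a (probe set 1387713_a_at) encodes the chain that binds IgE. Fcer1a read 13.1 in PICT, 1.92 in PCT and 3.49 in OMCT. PICT alone exceeded the floor, at percentile 23.5 of its array, and stood at 1.57 times its floor. It was at least 2.30-fold brighter than PCT and at least 3.64-fold brighter than OMCT as deposited, the former bound falling to 1.39-fold with arrays divided by their medians. Its brightest array thus differed from those of Cpa3, Cma1 and Tpsab1.

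Ms4a2 encodes the beta chain, which amplifies the receptor's signal. Probe set 1369399_at read 6.75 in PICT, 5.33 in PCT and 10.3 in OMCT, and exceeded the floor in OMCT only. Probe set 1370783_a_at read 5.92, 6.33 and 2.83, and exceeded it in PCT only. The probe sets of Ms4a2 disagree on which array is brightest, so no order is read from this gene.

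Kit (probe set 1369822_at), the receptor for stem cell factor that mast cells need to survive, read 8.07 in PICT, 3.93 in PCT and 3.77 in OMCT. Only the OMCT value exceeded its floor, and by 1.05 times. Kit is also made by melanocytes. Hdc (probe set 1370491_a_at) encodes histidine decarboxylase, which makes histamine. It read 5.89 in PICT, 6.81 in PCT and 5.00 in OMCT, between 0.704 and 1.39 times the floor of each array. Neither gene gave a usable order of the tissues.

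Differences are also given on a log2 scale, as log2(intensity + 8.56), the added value being the 20th percentile over the deposited table, with each array's median subtracted ("relative") or not ("as deposited"). The array medians lay lower in PCT, so a gene with no signal on either array takes a relative difference of -0.60 in PICT minus PCT, 0.02 in PICT minus OMCT and -0.62 in OMCT minus PCT. Relative values of genes as dim as the markers have to be read against these offsets. The median of the 9 markers was -0.69, 0.11 and -0.64 in the same order, against -0.13, -0.04 and -0.08 over all genes; as deposited it was -0.09, 0.09 and -0.02, against 0.47, -0.06 and 0.54. The marker medians thus lay close to those of genes without signal.

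By the rule of size used for all genes, a log2 difference of at least 1 (2-fold) with the brighter array at or above its median probe set, 0 of 9 markers were higher and 0 lower in each comparison. Over all genes the same rule called 3.98% higher and 3.37% lower in PICT minus PCT, 4.15% and 4.46% in PICT minus OMCT, and 5.66% and 4.81% in OMCT minus PCT. As deposited the counts of markers were also 0, against 14.1% and 0.9%, 3.98% and 4.64%, and 17.6% and 2.1% of all genes. Cpa3 came nearest, with 33.3 in PCT against that array's median of 34.3. The rule therefore could call no marker, whatever its difference.

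With the brighter array required only to exceed its highest negative control, 4 markers, Cpa3, Cma1, Tpsab1 and Tpsb2, were lower in PICT minus PCT and 0 higher, against 6.12% and 4.62% of all genes. In OMCT minus PCT, 3 markers (Cpa3, Cma1 and Tpsab1) were lower and 0 higher, against 7.68% and 6.56%. In PICT minus OMCT, 1 marker (Tpsb2) was lower and 0 higher, against 6.34% and 5.86%. As deposited the counts were 3 lower (Cpa3, Cma1 and Tpsab1) and 1 higher (Fcer1a) in PICT minus PCT, against 1.39% and 17.7% of all genes. They were 2 lower (Cpa3 and Cma1) and 0 higher in OMCT minus PCT, against 2.58% and 22.2%, and 1 lower (Tpsb2) and 0 higher in PICT minus OMCT, against 6.61% and 5.56%. These counts rest on the value added before the log: with the median intensity added, 0 markers were lower in PICT minus PCT (against 0.921% of all genes), 0 in PICT minus OMCT (2.64%) and 1, Cpa3, in OMCT minus PCT (2.36%). For Tpsb2, the bound of PCT over the PICT floor was 1.96-fold with arrays divided by their medians, so a 2-fold difference is not shown against that floor.

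A log2 difference with an array under the floor depends on the added value and is not a size: Cpa3 took -0.92 in PICT minus PCT and -1.03 in OMCT minus PCT with the median intensity added, and -2.93 and -3.92 with 1 added. With 8.56 added and relative to the array medians, Cpa3 differed by -2.09 in PICT minus PCT and by -2.51 in OMCT minus PCT. As deposited these differences were -1.49 and -1.89. Cma1 differed by -2.03 and -2.05 relative and by -1.43 and -1.43 as deposited. Tpsab1 differed by -1.66 and -1.12 relative, and by -1.06 and -0.50 as deposited. Tpsb2 differed by -1.51 in PICT minus PCT and -1.36 in PICT minus OMCT relative, and by -0.91 and -1.38 as deposited. Fcer1a differed by 0.45 in PICT minus PCT relative and 1.05 as deposited. As a gauge of technical spread, the log2 differences of probe sets of 1 gene scattered about their mean with an SD of 0.61 in PICT minus PCT, 0.62 in PICT minus OMCT and 0.60 in OMCT minus PCT, over 281 genes in the markers' range of levels. This SD is over probe sets, not animals.

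**Figure D2:**
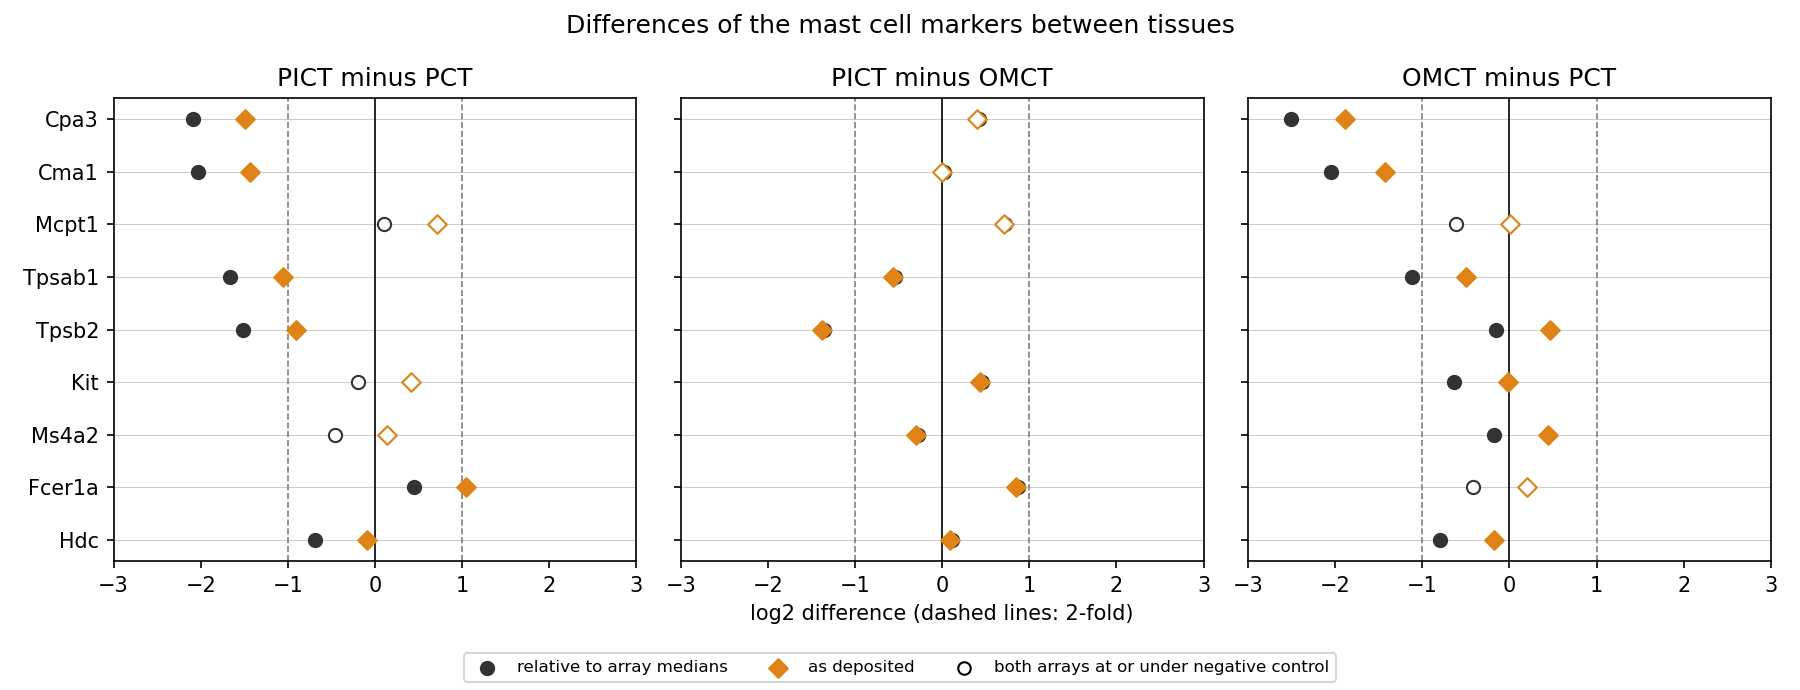
Log2 differences of the 9 mast cell markers (rows) in each comparison (panels), relative to array medians (circles) and as deposited (diamonds); dashed lines mark 2-fold and open symbols a gene at or under the negative control on both arrays. With 8.56 added before the log, Cpa3 and Cma1 lie beyond 2-fold toward PCT on either scale in the left and right panels, and Tpsb2 lies beyond it toward OMCT in the middle panel.

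PCT was the dimmest array, and only 8.35% of all genes were brightest there as deposited, against 40.5% in PICT and 51.1% in OMCT. Summed over the markers, the PICT, PCT and OMCT arrays gave intensities of 57.3, 105.3 and 59.5. Only 1 of 9 markers in PICT, and 5 of 9 in PCT and in OMCT, exceeded the floor. The sums therefore include signal not separated from background and are not amounts of marker RNA. The 3′ to 5′ ratio of control probe sets, a sign of shortened RNA, was highest in PCT (2.80 for hexokinase, against 1.58 in PICT and 1.97 in OMCT), and its part in these values was not tested.

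With only 3 arrays, and with Cpa3 under the floor in PICT and OMCT, likeness of pattern is a loose measure. By distance from Cpa3 of the relative log2 values, each less the gene's own mean, the nearest of 9633 genes above the floor on all arrays and above the median on the brightest were Ssuh2, Cntn1, Alas2, Lepr and Sectm1b. Ssuh2 read 9.57 in PICT, 40.7 in PCT and 5.19 in OMCT. Alas2, the erythroid enzyme of heme synthesis, read 10.0, 35.3 and 3.94.

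Other genes of mast cell biology were read list by list. Of 16 listed further granule proteases 6 were measured by a probe set of their own; Mcpt1l1 was lower in PICT and in OMCT than in PCT (relative differences of -2.50 and -3.15), and the other 5 passed the rule in no comparison. Mcpt8, a basophil protease, Mcpt9 and Mcpt10 did not exceed the floor on any array. Mcpt4 read 11.0 in PICT, 3.21 in PCT and 6.20 in OMCT. It was brightest in PICT, at 1.31 times the floor, unlike Cma1 and Mcpt1l1.

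Serglycin, the granule proteoglycan encoded by Srgn, is also made by other blood cells. It read 553 in PICT, 80.0 in PCT and 254 in OMCT, a relative difference of 2.06 in PICT minus PCT and 1.11 in PICT minus OMCT. The heparin enzyme Hs6st1 (a 6-O-sulfotransferase) went the other way, at -1.30 in PICT minus PCT and -2.09 in OMCT minus PCT. In the list of 10 heparin and serglycin genes these made 1 higher and 1 lower in PICT minus PCT, 1 and 0 in PICT minus OMCT, and 0 and 1 in OMCT minus PCT. As deposited the counts were 3 and 0, 1 and 0, and 3 and 1.

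Of 13 measured genes that pass on the signal of the IgE receptor, 5 were higher in PICT than in PCT and 0 lower (6 and 0 as deposited). Against PCT, 6 were higher in OMCT and 0 lower (7 and 0 as deposited), and in PICT minus OMCT 1 was higher and 0 lower. Among those past the rule, the largest differences in PICT minus PCT were those of Lcp2 (the adaptor SLP-76) at 2.37, Fcer1g (the shared gamma chain) at 2.29 and Inpp5d (the phosphatase SHIP1) at 1.41. In OMCT minus PCT they were Fcer1g at 2.60, Lyn (a Src family kinase) at 1.82 and Lcp2 at 1.24, and in PICT minus OMCT Lcp2 was at 1.13. The other probe set of Lcp2, above the floor on all arrays, gave 0.72 in PICT minus OMCT, under 2-fold. The count of 1 in that comparison thus rests on its brighter probe set. Fcer1g read 1356 in PICT, 174.7 in PCT and 1706 in OMCT. These genes also serve macrophages and other leukocytes. Of 9 measured macrophage markers, 5 were higher in PICT and 8 in OMCT than in PCT and 0 were lower (6 and 8 as deposited), 4 were lower in PICT minus OMCT, and their intensities summed to 1934 in PICT, 337 in PCT and 3933 in OMCT. The part of macrophages in the signalling genes was not tested.

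Among 8 measured transcription factors of mast cells, Gata2, a regulator of mast cell and blood progenitor genes, was lower in PICT than in PCT by -1.03 relative but by less than 2-fold as deposited, with 37.6 in PICT, 53.7 in PCT and 58.5 in OMCT. Mitf, needed by mast cells, melanocytes and osteoclasts, was higher than in PCT by 2.13 in PICT and 2.23 in OMCT. Cebpa, a myeloid factor, was higher in PICT than in OMCT by 1.44. The counts were 1 higher and 1 lower in PICT minus PCT (2 and 0 as deposited), 1 and 0 in PICT minus OMCT, and 1 and 0 in OMCT minus PCT (2 and 0 as deposited).

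Factors that feed or attract mast cells were measured for 12 of 14 genes, with 2 higher and 3 lower in PICT minus PCT (2 and 0 as deposited), 1 and 2 in PICT minus OMCT, and 1 and 0 in OMCT minus PCT (2 and 0 as deposited). Kitlg, which encodes stem cell factor, the ligand of Kit, read 84.6 in PICT, 121 in PCT and 189 in OMCT. Those values, from its brightest probe set, made it lower in PICT by -1.08 against PCT and -1.06 against OMCT. Its other 3 probe sets, above the floor on all arrays, gave -0.39, 0.09 and -0.20 against PCT and -0.21, 0.17 and -0.53 against OMCT, all under 2-fold, so no direction is read for Kitlg. Tgfb1 was lower in PICT by -1.40 against PCT, a difference under 2-fold as deposited, and by -1.84 against OMCT. Ccl2, a monocyte and mast cell attractant, was higher than in PCT by 2.52 in PICT and 2.88 in OMCT. Il1rl1, the receptor for IL-33 on mast cells and some lymphocytes, was higher in PICT by 1.43 against PCT and 1.39 against OMCT, with 78.7, 12.8 and 25.2 in PICT, PCT and OMCT from probe set 1387273_at. Its other probe set, 1370692_at, lay under the floor in PICT (3.75) and PCT (1.61) and read 25.8 in OMCT, a difference of -1.46 in PICT minus OMCT. The probe sets of Il1rl1 disagree, so no order of its arrays is read. The cytokine Il4 did not exceed the floor on any array.

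Of 10 measured genes for lipid mediators and amine storage, 2 were higher and 0 lower in PICT minus PCT (4 and 0 as deposited), and 4 and 0 in OMCT minus PCT (6 and 0 as deposited). Ptgs2 (cyclooxygenase 2) was at 3.11 and 2.68, Alox5ap (the activator of 5-lipoxygenase) at 1.18 and 1.69, and in OMCT minus PCT Ptgs1 (cyclooxygenase 1) was at 2.06 and Alox5 at 1.70. In PICT minus OMCT Ptgs1 was lower, at -1.22, and 0 were higher (0 higher and 2 lower as deposited). The other probe set of Ptgs1 gave 0.74 in OMCT minus PCT and -0.51 in PICT minus OMCT, both under 2-fold. All of these have other sources than mast cells. Of 6 genes for breakdown of histamine and its receptors none reached an array's median, so the rule could call none. In PICT 2 exceeded the floor, and 3 each in PCT and OMCT. With the negative control as the bar, 1 (Hrh3, at -1.28) was lower in PICT minus PCT, against 6.12% of all genes. In PICT minus OMCT 1 (Hrh2, at 1.44) was higher, against 5.86%. In OMCT minus PCT 2 were lower, Hrh2 at -1.88 and Hrh3 at -1.22, against 7.68%. None was called in the opposite direction.

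Of 6 measured surface receptors, 2 were higher in PICT than in PCT (C5ar1, the C5a receptor, at 2.65, and Il1rl1), 2 in OMCT than in PCT (C5ar1 at 2.57 and Cd63, a granule membrane tetraspanin, at 1.36), 1 in PICT than in OMCT (Il1rl1), and 0 were lower. The counts with Il1rl1 rest on the brighter of its disagreeing probe sets. As deposited the first count was 3. Among 7 substrates and effectors downstream of mast cell proteases, F2rl1, the receptor PAR2 that tryptase can cleave, read 20.9 in PICT, 70.3 in PCT and 29.5 in OMCT, relative differences of -2.02 in PICT minus PCT and -1.67 in OMCT minus PCT. Ace, in the same list, was lower in PICT by -1.92 against PCT and -1.37 against OMCT, read from its brighter probe set. Its other probe set, above the floor on all arrays, gave -1.50 and -0.56, the latter under 2-fold. As deposited that probe set gave -0.90 against PCT, also under 2-fold. F2rl1, Ace and Tgfb1 made 3 lower in PICT minus PCT, 2 in PICT minus OMCT and 1 in OMCT minus PCT, and 0 higher. As deposited, 2, 2 and 1 were lower and 1 was higher, in OMCT minus PCT. The counts with Ace rest on its brighter probe set. F2rl1 is also an epithelial gene.

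**Figure D3:**
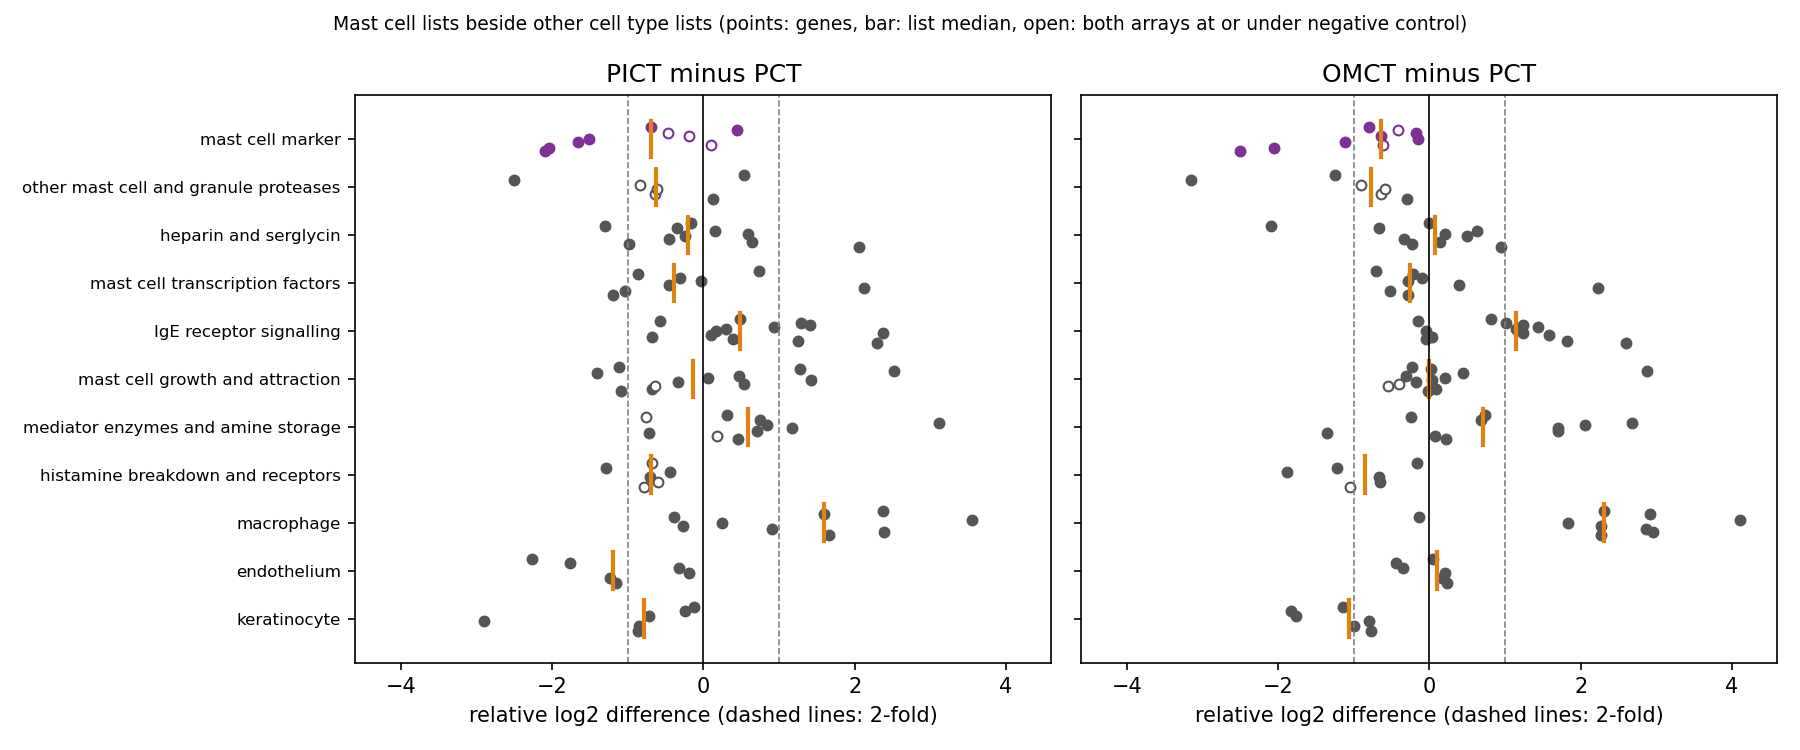
Relative log2 differences from PCT for PICT (left) and OMCT (right) of the genes in the mast cell lists and in 3 lists of other cells; points are genes, bars list medians, dashed lines 2-fold, and open points lie at or under the negative control on both arrays. The mast cell markers (top row, median -0.69 and -0.64) lie to the left of the IgE receptor signalling and macrophage genes (medians 0.49 and 1.59 for PICT, 1.15 and 2.31 for OMCT). On this scale a gene with no signal on either array takes -0.60 (left) and -0.62 (right), so the marker medians lie close to no signal.

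Markers of other granulocytes passed the rule in no comparison, but no eosinophil gene and only Il3ra of the basophil genes reached an array's median. For the others the rule could call nothing. With the negative control as the bar, Ccr3 (in both lists) at 1.51 and the eosinophil gene Epx at 1.10 were higher in PICT minus OMCT. Ccr3 was lower in OMCT minus PCT, at -1.29. Of all genes, 5.86% were higher and 7.68% lower in those comparisons. No gene of these lists was called otherwise. Of the basophil list 4 of 6 genes were measured, and of the eosinophil list 4 of 6. Of 6 melanocyte genes, which bear on Kit and Mitf, 3 exceeded the floor in PICT, 4 in PCT and 4 in OMCT. Sox10, also a Schwann cell gene, was the only one of them to pass the rule, at -2.50 in PICT minus PCT (3.20, under the floor, against 35.3). Fibroblast genes were bright on all arrays, as were keratinocyte genes, the 6 keratinocyte genes summing to 31908 (PICT), 34310 (PCT) and 24146 (OMCT). Keratinocyte gene signal was thus present on every array, although the labels name each sample connective tissue. How it came into the samples was not tested. Of 8 fibroblast genes 1 was higher in PICT and 5 in OMCT than in PCT (4 and 5 as deposited), and 3 were lower in PICT than in OMCT. Of the 6 keratinocyte genes, 1 was lower in PICT and 3 in OMCT than in PCT (1 and 2 as deposited), and PICT minus OMCT had 3 higher and 1 lower (2 and 1 as deposited). Of 6 endothelial genes 4 were lower in PICT minus PCT (2 as deposited), 4 in PICT minus OMCT, and 0 passed the rule in OMCT minus PCT. What these cell types contribute to the marker values was not tested.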

How the data were processed

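RNA from 3 laser-microdissected rat tissues was hybridised to 1 GeneChip array each, after labelling with a 3′ kit, per the labels' protocols. The deposited table holds probe set intensities on a linear scale; how the authors summarised and scaled them is not stated by the labels. Genes were named from a platform annotation dated 2016: 20832 probe sets had 1 symbol, 436 several and 9831 none, and the latter groups were not used for genes. A gene was read from its brightest probe set (highest mean log2 over the arrays); all probe sets of the markers were also read singly. The pseudocount was the 20th percentile of all values. Folds written "at least" replace a dim value by the highest negative control of its array. The calling script was checked on made-up arrays with known answers. Members, lists and the genes named (every marker, up to 3 members of each list past the rule in each comparison, and the genes nearest Cpa3) were chosen with earlier results of these data known. Genes outside the rule, such as Mcpt4, Il4, Gzmb, Hrh2, Hrh3, Ccr3 and Epx, were named after their values were seen. Python 3.11.15, numpy 2.4.6 and pandas 2.3.3 were used. Alternatives covered scaling, pseudocount, probe set choice and the brightness filter.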

Additional observations from a re-analysis of the deposited data

How the results depend on the processing

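The counts of markers past 2-fold were 0 in each direction and comparison under no centring, trimmed-mean scaling, a pseudocount at the median intensity or of 1, and the mean over probe sets; since no marker reached an array's median, those settings could not have changed them. With no brightness rule, or the negative control as the bar, 0 markers were higher, against 4.62%, 5.86% and 6.56% of all genes in the order that follows. Lower markers numbered 4 in PICT minus PCT, 1 in PICT minus OMCT and 3 in OMCT minus PCT with no brightness rule. Of all genes, 6.65%, 6.34% and 8.18% were lower by that setting. Lower markers were also 4, 1 and 3 with the negative control as the bar, against 6.12%, 6.34% and 7.68% of all genes. With that bar as deposited they were 3, 1 and 2 (1.39%, 6.61% and 2.58% of all genes), with 1 higher in PICT minus PCT (17.7%). With trimmed-mean scaling they were 4, 1 and 2 (4.43%, 5.65% and 6.14%). Both combinations were chosen after seeing the data. The same bar with a pseudocount at the median intensity gave 0, 0 and 1 lower and 0 higher. Of all genes, 0.921%, 2.64% and 2.36% were lower and 2.81%, 2.48% and 4.49% higher. With a pseudocount of 1 the same bar gave 4, 1 and 4 lower and 1, 1 and 0 higher. Of all genes, 8.88%, 10.5% and 9.97% were lower and 7.66%, 7.95% and 10.9% higher. These combinations were also chosen after seeing the data. At the median pseudocount PICT minus PCT was -0.92 for Cpa3, -0.78 for Cma1, -0.72 for Tpsab1 and -0.57 for Tpsb2, all under 2-fold. Other floors were also chosen after seeing the data. With the highest negative control of any array, 1, 4 and 3 markers exceeded it in PICT, PCT and OMCT, against 86.6%, 82.3% and 87.1% of all genes. With each array's 20th percentile the counts were 1, 5 and 2, against 84.8%, 85.2% and 85.0% of all genes. Of 27 log2 differences of single markers, 7 changed sign as deposited, 4 with trimmed-mean scaling, 2 with each other pseudocount and 1 with the mean over probe sets. Beyond the spread between probe sets, 9 moved as deposited, 7 with the pseudocount at the median, 11 with 1, and 0 under the other settings. Leaving out the centring takes the same offset from every gene, -0.60 in PICT minus PCT and -0.62 in OMCT minus PCT. The 9 were all those of OMCT minus PCT, where the SD was 0.60, against 0.61 in PICT minus PCT. That count is set by the array offset and says nothing of single markers. No paired analysis was possible because each tissue has 1 array. Signal over background is the limit for every marker.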
